A study of Saccharomyces cerevisiae with 12 samples.

Results

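The rapamycin response of H2B R95A was compared with that of H2B WT over all 12 arrays of the series, as the change with rapamycin in H2B R95A minus the change with rapamycin in H2B WT. The comparison took every probe set annotated with one S. cerevisiae gene, 5498 probe sets for 5449 genes out of 10928 on the array, and each group held 3 arrays. H2B WT and H2B R95A are budding yeast strains of a histone mutant collection in the FY406 MATa background. Both lack the chromosomal copies of the gene pairs for histones H2A and H2B and live on a plasmid-borne copy, which in H2B R95A encodes alanine in place of arginine at residue 95 of H2B. The groups were untreated H2B WT, H2B WT with rapamycin, untreated H2B R95A and H2B R95A with rapamycin, with rapamycin at 200 ng/ml for 30 min in exponential cultures. Each genotype was represented by 1 strain of the collection, and the labels do not say whether replicate arrays came from separate cultures, so p-values measure the spread between these arrays. The question is whether the strains answer the drug differently, and, for each function, whether such a difference lies in the untreated or in the treated cells. The study had chosen H2B R95A in a rapamycin screen of the collection.

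Rapamycin, bound to the protein Fpr1, inhibits the kinase complex TORC1, which couples growth to nutrients. In budding yeast TORC1 keeps the genes of ribosome production active through Sfp1, Ifh1 and Sch9, and holds back nitrogen catabolite genes by keeping the GATA factor Gln3 out of the nucleus. It also restrains stress genes under Msn2 and Msn4 and the onset of autophagy. When TORC1 is inhibited, ribosomal protein and ribosome assembly transcripts are known to decline and permeases and enzymes for poor nitrogen sources to be induced.

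Signals are log2 values after robust multi-array averaging, so a difference of 1 is a 2-fold change on that scale. The median signal of the tested probe sets lay between 7.25 and 7.30 on all arrays, a spread that quantile normalization holds small. Replicate numbers carried 65.7% of the sum of squares within groups. The 4 arrays numbered 1 stood apart from the rest in genes that glucose holds low, with a mean signal of 15 such genes from 10.38 to 10.61, against 7.02 to 8.99 on the other 8 arrays. This list was drawn up with that pattern known. The difference between 3′ and 5′ probe sets of ACT1, a measure of RNA quality, ranged from 0.42 to 0.78 and overlapped between all groups. That of TDH1 was 0.40 and 0.43 on the untreated and treated H2B R95A arrays numbered 1, against 0.15 to 0.24 on the other 10 arrays. Of the markers of a-mating type, STE2 read 9.43 ± 0.88 (SD, n = 3) in untreated H2B WT and 5.02 ± 0.38 in untreated H2B R95A, so that this marker of the MATa background was high in H2B WT and low in H2B R95A. The mating type and ploidy of the strains were not tested, and a difference in either between the 2 strains cannot be told apart from the change in H2B in any strain difference given here. The α-mating markers STE3 and MF(ALPHA)2 were below 5 on every array, while SAG1 read between 5.59 and 6.75. HTB1 read between 11.98 and 12.40, and its probe set does not tell the 2 alleles apart. With 3 arrays against 3, an exact permutation test of a single value cannot give a p under 0.1.

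Responses were spread more widely in H2B R95A than in H2B WT. At least a 2-fold change was measured for 26 probe sets upward and 155 downward in H2B WT, and for 148 upward and 447 downward in H2B R95A. Across all probe sets the 2 responses had a Pearson r of 0.782 and a Spearman rho of 0.627, as a description over genes, which are not independent, on arrays that were normalized together and share replicate numbers. The SD over probe sets of the response was 0.380 in H2B WT and 0.664 in H2B R95A. At an unadjusted p under 0.05, the response was positive for 46 probe sets (0.837%) and negative for 189 (3.44%) in H2B WT, and positive for 393 (7.15%) and negative for 560 (10.2%) in H2B R95A. No probe set had an adjusted p under 0.05 for the response in either strain. The smallest adjusted p from limma was 0.9997 in H2B WT and 0.0941 in H2B R95A.

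**Figure D1:**
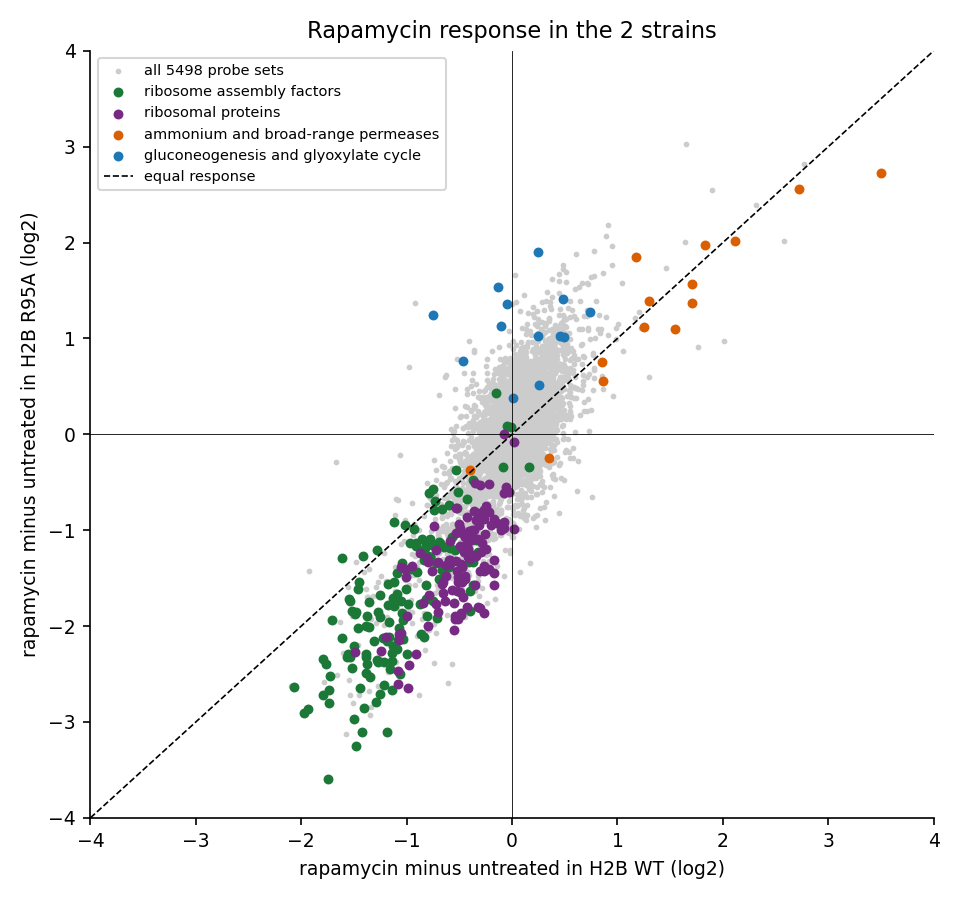
Response to rapamycin of each of the 5498 probe sets, as the log2 difference of group means (3 arrays a group), in H2B WT on the x axis and in H2B R95A on the y axis. Grey points are all probe sets, coloured points the members of 4 functions, and the dashed line marks equal responses. Ribosome assembly factors and ribosomal proteins lie mostly below the line, permeases of nitrogen use along it, and genes of gluconeogenesis above it.

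The difference between the 2 responses itself did not pass the test for any probe set. With limma, 0 of 5498 (0%) had an adjusted p under 0.05, and the smallest adjusted p was 0.9997. At an unadjusted p under 0.05, 3 probe sets were higher (0.0546%) and 5 were lower (0.0909%), where higher means a response in H2B R95A above that in H2B WT. These counts moved with single arrays, to 253 and 233 without untreated H2B R95A array 1 and to 60 and 20 without untreated H2B WT array 1. With the replicate number as a block they were 38 and 36. The shares of the main fit fall far short of the p level of 0.05. The main fit has no term for the replicate number, so variation that goes with the numbers enters its standard errors and the 95% intervals given here. Cyber-T, the test of the study's methods, also passed 0. At the threshold of the study's methods, taken as an unadjusted p up to 0.01 with a change of 2-fold or more, 0 probe sets were higher (0%) and 1 was lower (0.0182%), and this was TRM11. The median difference of responses over all probe sets was 0.05. The precision limits this count, since the median standard error was 0.418 and the 95% interval reached a median of 0.918 to either side, a 1.89-fold change.

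The difference of responses equals the strain difference in treated cells minus the strain difference in untreated cells, so each value can be placed in either pair of groups. It is called mainly untreated where the untreated strain difference is at least 2 times the treated one in size, mainly treated in the opposite case, and in both groups otherwise. This is a description with no test. Over all probe sets the SD of the strain difference was 0.495 in untreated and 0.295 in treated cells. At an unadjusted p under 0.05 the untreated strains differed in 97 probe sets upward in H2B R95A (1.76%) and 174 downward (3.16%), and the treated strains in 11 upward (0.2%) and 72 downward (1.31%). At an adjusted p under 0.05 from limma the counts were close. They were 2 upward and 20 downward in untreated cells, and 2 upward and 17 downward in treated cells. A difference of responses of at least 2-fold was measured for 54 probe sets upward, of which 41 were mainly untreated and 0 mainly treated. Downward there were 155, of which 130 were mainly untreated and 2 mainly treated. Among all 5498 probe sets, 53.5% were mainly untreated, 13.2% mainly treated and 33.4% in both groups. The difference of responses was positive in 3079 of these probe sets and negative in 2419. Genes of a function were read on the same arrays and are not independent. Counts of signs within a function are thus also a description with no test.

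Of the 8 probe sets with an unadjusted p under 0.05, 7 differed mainly between the untreated strains, as did 53.5% of all probe sets. Among those with a difference of responses of at least 2-fold, 41 of 54 upward and 130 of 155 downward did so. Of the 8, TRM11 was named by a rule set beforehand on the p of this same fit, and the other 7 after their values were seen. All 8 were thus picked on these values, and none passed the test. TRM11 encodes the catalytic subunit of a tRNA guanosine methyltransferase. Its signal was 4.44, 5.81 and 4.88 on untreated H2B R95A arrays 1, 2 and 3, and 3.88, 3.34 and 3.31 on those of untreated H2B WT. After rapamycin it was 3.52, 3.03 and 3.30 in H2B R95A and 3.63, 3.04 and 3.16 in H2B WT. The untreated H2B R95A arrays thus lay above all 9 others. The response was -1.76 in H2B R95A and -0.23 in H2B WT, a difference of -1.53 (standard error 0.48, 95% interval -2.57 to -0.48, adjusted p = 0.9997 from limma). With 1 array left out at a time it ranged from -1.83 to -1.15, with an unadjusted p of 0.00164 to 0.0216 from limma, and the study's threshold was kept in 4 of 12 refits. It was lost without any 1 of 8 arrays, those being every array numbered 3, H2B WT array 1 with rapamycin, untreated H2B WT array 2 and both H2B R95A arrays numbered 2. With the replicate number as a block the threshold was also lost (unadjusted p = 0.0121 from limma). With that block as a random effect it was kept (unadjusted p = 0.00523 from limma).

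AIR1 and REX4 shared this shape. AIR1, a zinc-knuckle subunit of the TRAMP complex that marks nuclear RNA for decay, read 5.93, 5.70 and 6.07 in untreated H2B R95A and 5.55, 5.07 and 4.99 in untreated H2B WT. Treated arrays of the 2 strains overlapped, at 4.97, 4.61 and 4.71 and 5.11, 4.61 and 4.93, and the difference of responses was -0.81 (standard error 0.31). REX4, a putative RNA exonuclease of pre-rRNA processing, read 5.35, 5.36 and 5.08 in untreated H2B R95A, and its other 9 arrays lay between 4.31 and 4.70. Its difference of responses was -0.71 (standard error 0.26, 95% interval -1.27 to -0.14). DCD1, the deoxycytidylate deaminase of dTMP synthesis, read 5.99, 6.22 and 6.34 in untreated H2B R95A, against 5.51, 5.64 and 5.57 in untreated H2B WT. Its treated arrays lay between 5.37 and 5.55 in both strains, and its difference of responses was -0.56 (standard error 0.23).

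GFD2 was the exception, with its strain difference mainly in the treated cells. Untreated arrays overlapped at 5.92, 5.93 and 5.32 in H2B WT and 5.50, 5.95 and 6.35 in H2B R95A. With rapamycin the H2B R95A arrays, at 4.06, 4.08 and 4.69, overlapped with those of H2B WT, at 4.59, 5.18 and 5.20, in 1 array. The strain difference was 0.21 untreated and -0.72 treated, and the difference of responses -0.93 (standard error 0.42). In the upward direction, HRD1, the ubiquitin ligase of endoplasmic reticulum quality control, read 7.49, 7.54 and 7.21 in untreated H2B R95A and 7.93, 8.15 and 8.29 after rapamycin, against 7.50, 8.04 and 8.08 and 7.75, 8.02 and 7.96 in H2B WT. The difference of responses was 0.67 (standard error 0.29). The open reading frames YAR009C and YDR261C-D belong to Ty retrotransposons, whose near-identical copies a probe set may not separate, so their values are uncertain. YAR009C read 9.02, 8.73 and 9.27 in untreated H2B WT and 7.60, 7.61 and 6.86 in untreated H2B R95A, and 8.20, 9.01 and 8.73 and 8.04, 8.12 and 8.53 in the treated strains. This gave a difference of responses of 1.24 (standard error 0.40), that of YDR261C-D 0.90 (standard error 0.39), and the untreated strain differences were -1.65 and -1.47. With 1 array left out at a time, YAR009C had an unadjusted p under 0.05 from limma in 12 of 12 refits and reached the study's threshold in 4. That p level held in 11 refits for REX4, 7 for AIR1, 5 for GFD2 and YDR261C-D, and 4 for DCD1 and HRD1.

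**Figure D2:**
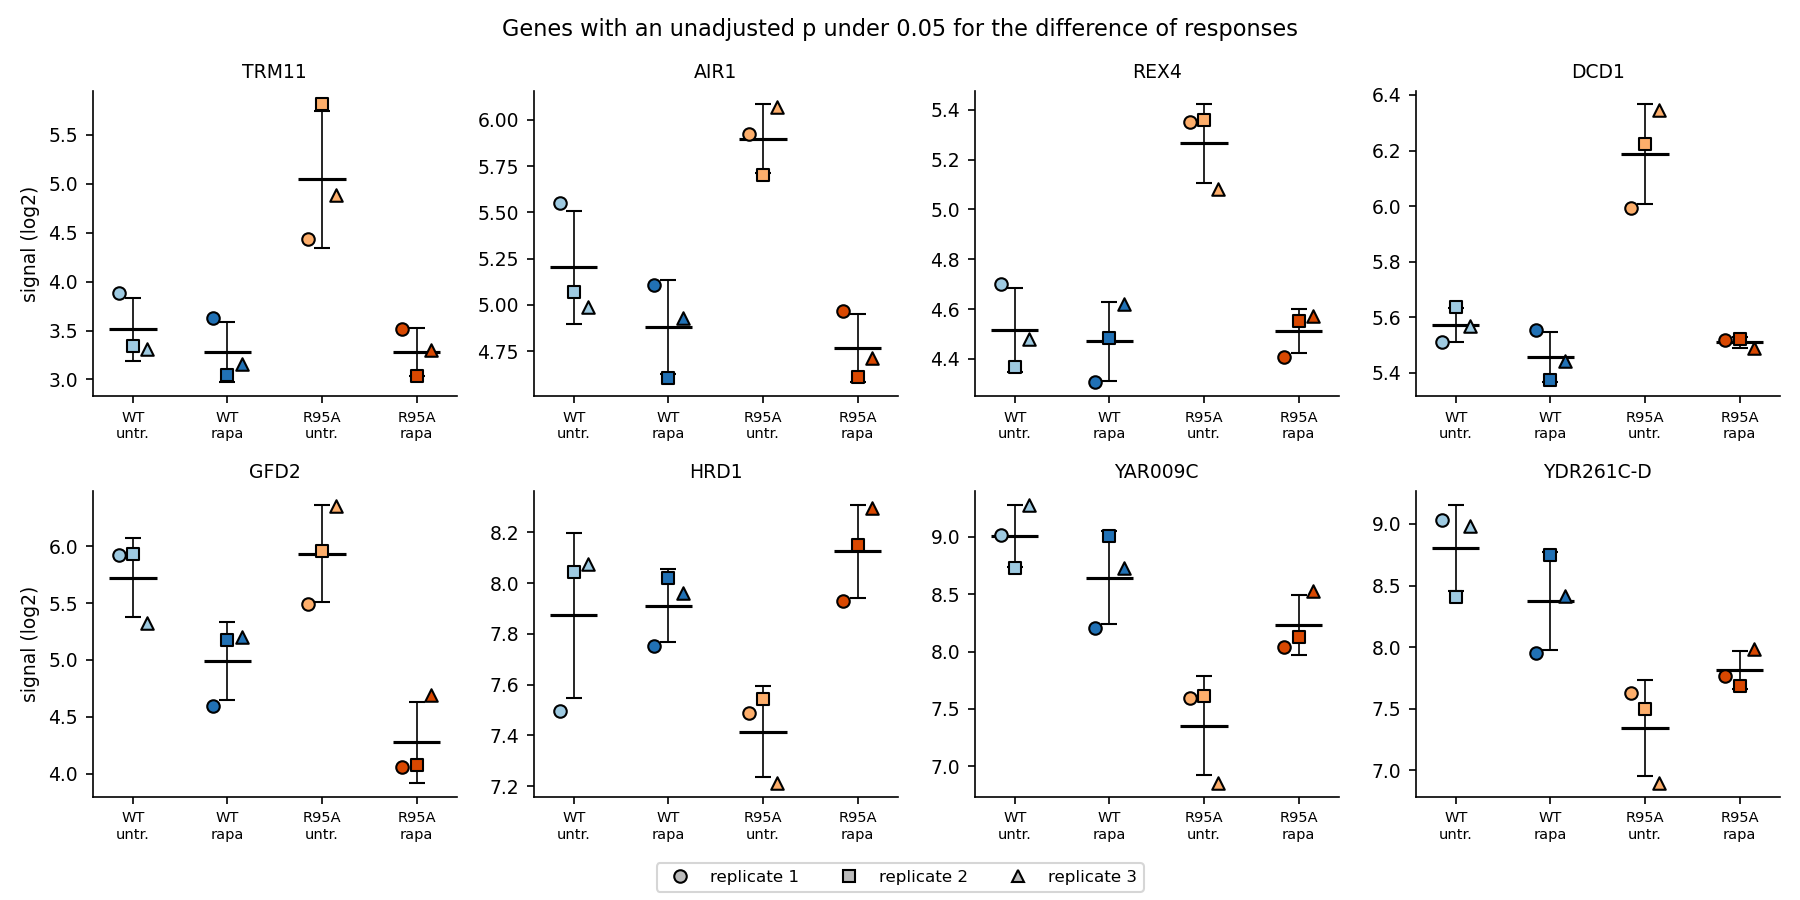
Signal (log2) on each of the 12 arrays for the 8 probe sets with an unadjusted p under 0.05 for the difference of responses. Markers give the replicate number, horizontal bars the group mean and error bars the SD (n = 3). In TRM11, AIR1, REX4 and DCD1 the untreated H2B R95A arrays lie above all arrays of the other groups, and in YAR009C and YDR261C-D below them.

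Ribosome assembly factors had more negative responses in H2B R95A than in H2B WT, from higher mean signals in the untreated cells and with near-equal signals after rapamycin, and no member passed the test. The 75 factors of 60S assembly had a mean response of -1.05 in H2B WT and -1.76 in H2B R95A, a difference of -0.71. On untreated arrays 1, 2 and 3 their mean signal was 6.90, 6.90 and 5.61 in H2B WT and 6.89, 7.79 and 7.21 in H2B R95A. With rapamycin it was 6.05, 4.98 and 5.24 in H2B WT and 5.99, 5.02 and 5.59 in H2B R95A. The strain difference was thus 0.83 untreated and 0.11 treated, mainly untreated, and stayed so in 11 of 12 refits with 1 array left out. The untreated arrays numbered 1 were nearly equal in the 2 strains, and untreated H2B WT array 3 was the lowest of the 6 untreated arrays.

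Of these 75 genes, 67 had a negative difference of responses (median -0.75, against 0.05 over all probe sets), and the median was -1.0 with treated H2B WT array 2 left out and -0.28 with untreated H2B WT array 3 left out. MAK16, a 66S pre-ribosome constituent, had responses of -1.75 in H2B WT and -3.60 in H2B R95A, a difference of -1.85 (standard error 0.89, 95% interval -3.80 to 0.11). NIP7, which acts in pre-rRNA processing and 60S assembly, read 6.63, 7.28 and 4.48 in untreated H2B WT and 6.64, 8.79 and 7.94 in untreated H2B R95A, and 5.41, 4.01 and 4.52 and 5.13, 4.22 and 4.29 in the treated strains. Its untreated groups overlapped, and its difference of responses was -1.76 (standard error 1.01). BRX1 and ARX1, factors of 60S assembly and export, had differences of -1.67 and -1.50. Among the untreated strain differences of the list, 9 of 75 were positive at an unadjusted p under 0.05, against 1.76% of all probe sets. Of the treated ones 0 were, against 0.2% of all probe sets. Untreated counts of related lists were 5 of 70 for 40S assembly and 0 of 12 for snoRNP proteins. They were 2 of 75 and 4 of 53 for large and small subunit ribosomal proteins, and 2 of 54 for tRNA synthetases and translation factors. The 3′ minus 5′ difference of ACT1 was 0.74, 0.48 and 0.55 on untreated H2B R95A arrays 1, 2 and 3 and 0.76, 0.74 and 0.70 on those of untreated H2B WT, and its part in these values was not tested.

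The 70 factors of the small subunit processome and 40S assembly gave responses of -1.02 and -1.66, a difference of -0.64. Their strain difference was 0.73 untreated and 0.08 treated, mainly untreated in 11 of 12 refits. A negative difference of responses was measured in 66 of 70 members (median -0.62), and the median was -0.81 with treated H2B WT array 2 left out and -0.22 with untreated H2B WT array 3 left out. NSR1, which encodes a nucleolin-like protein, read 7.11, 7.86 and 5.39 in untreated H2B WT and 6.96, 9.40 and 8.74 in untreated H2B R95A. After rapamycin it read 5.58, 5.52 and 5.71 and 5.11, 5.11 and 5.54, and its difference of responses was -1.92 (standard error 0.91, 95% interval -3.92 to 0.07). TSR2, a chaperone of Rps26, and UTP8, of the t-UTP subcomplex, had differences of -1.53 and -1.47. Untreated strain differences were 1.15 and 1.43, and treated ones -0.39 and -0.04. The 19 DEAD-box helicases of ribosome assembly all had negative differences (list mean -0.78, 0.86 untreated and 0.09 treated), led by DBP2 (-1.83, standard error 1.48) and HAS1 (-1.82, standard error 1.38). The 12 core proteins of snoRNPs, the particles that methylate and pseudouridylate rRNA, had a mean difference of -0.76, with 0.73 untreated and -0.03 treated. NOP1, the rRNA methyltransferase fibrillarin, had one of -1.65 (standard error 1.06). Both lists stayed mainly untreated in all 12 refits, but the medians moved, that of the helicases being -0.88 with treated H2B WT array 2 left out and -0.28 with untreated H2B WT array 3 left out and that of the snoRNP proteins -1.33 with untreated H2B R95A array 1 left out and -0.45 with untreated H2B WT array 3 left out.

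Ribosomal protein genes had the most negative mean difference of the functions examined. The 75 measured large subunit genes had responses of -0.51 in H2B WT and -1.36 in H2B R95A, a difference of -0.85, and 74 of them were negative. The 53 small subunit genes had responses of -0.48 and -1.32, a difference of -0.84, and all 53 were negative. Over all tested probe sets, 2419 of 5498 were negative. Untreated arrays of the large subunit genes read 9.53, 10.03 and 8.71 in H2B WT and 9.29, 10.67 and 10.28 in H2B R95A, and treated arrays 9.08, 8.96 and 8.70 and 8.77, 9.25 and 8.14. The groups overlapped in both pairs. The strain difference was 0.66 untreated and -0.19 treated for the large subunit, mainly untreated in 9 of 12 refits, and 0.69 and -0.15 for the small subunit, in 11 of 12. Medians depended on single untreated arrays, and that of the large subunit was -1.27 with untreated H2B R95A array 1 left out and -0.51 with untreated H2B WT array 3 left out, and that of the small subunit -1.17 with untreated H2B R95A array 1 left out and -0.46 with untreated H2B WT array 3 left out. RPS9B read 8.86, 9.32 and 6.81 in untreated H2B WT and 8.48, 10.98 and 10.27 in untreated H2B R95A, and its difference of responses was -1.66 (standard error 1.02, 95% interval -3.90 to 0.59). RPL22A and RPL17B had differences of -1.53 and -1.49, with untreated strain differences of 1.59 and 0.89. Many of these genes are duplicated pairs whose probe sets may share signal. The 72 mitochondrial ribosomal protein genes had a mean difference of 0.13, with 0.07 untreated and 0.19 treated, mainly treated in 8 of 12 refits.

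**Figure D3:**
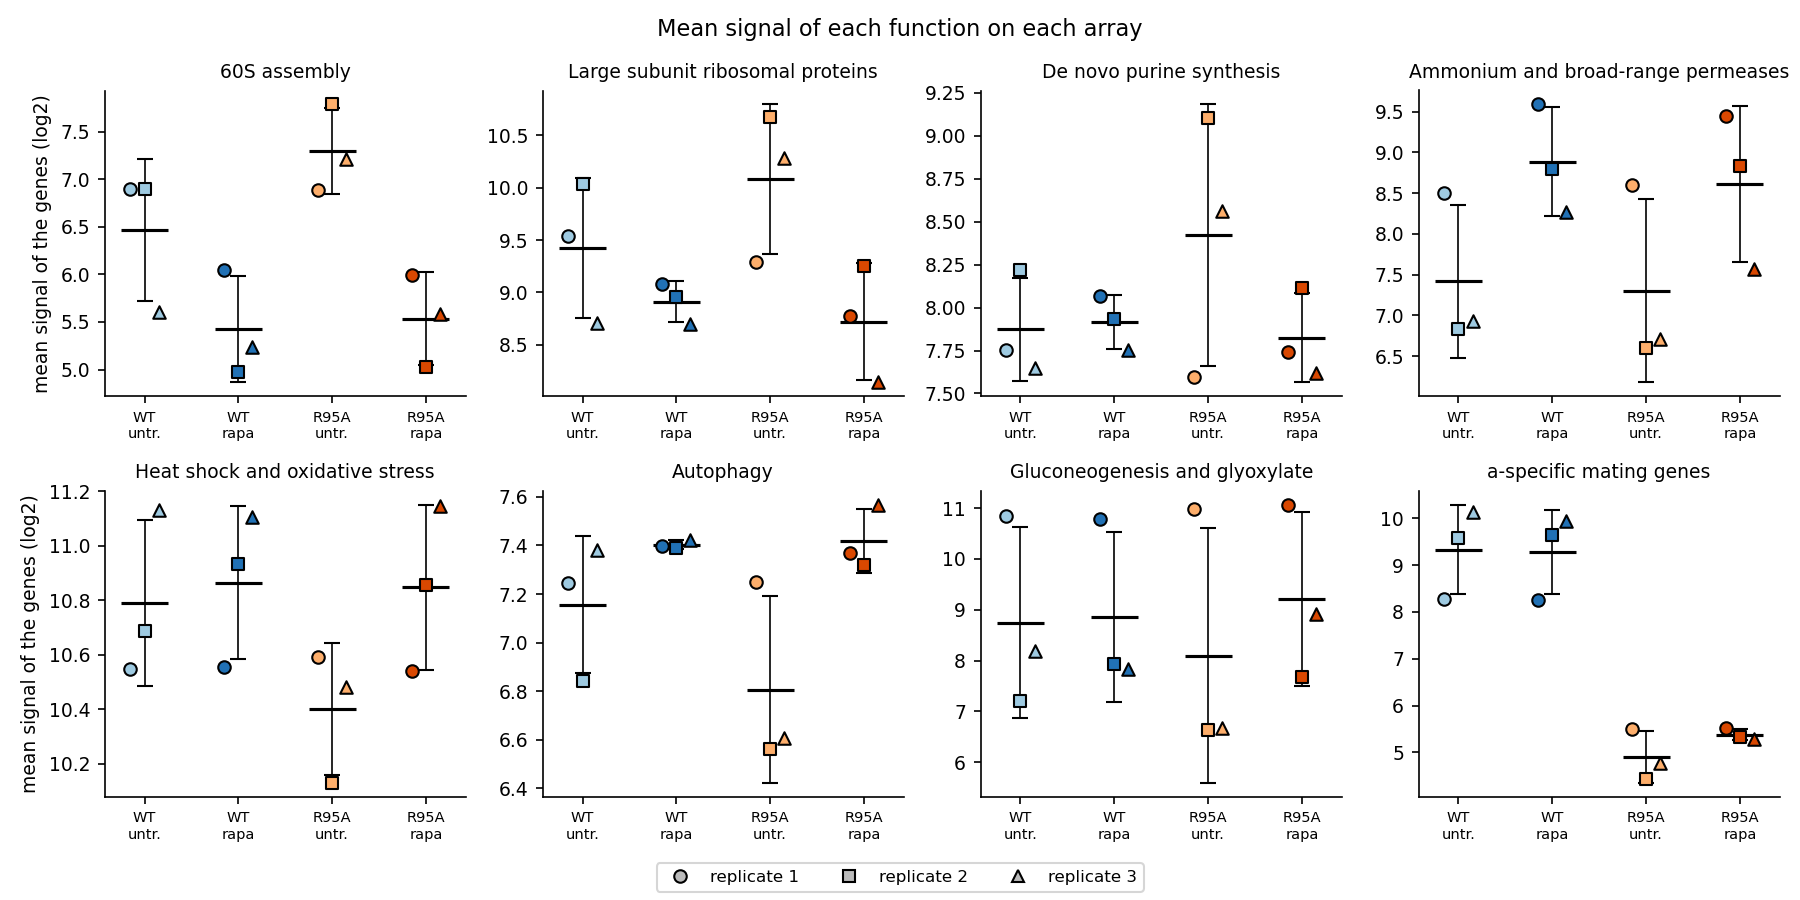
Mean signal (log2) of the measured genes of 8 functions on each of the 12 arrays, with the group mean (bar) and SD (error bar, n = 3) and the replicate number as the marker. For 60S assembly and ribosomal protein genes, untreated H2B R95A arrays 2 and 3 are the highest, and the treated groups overlap. The a-specific mating genes separate the strains with and without rapamycin.

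The polymerases and tRNA enzymes followed with smaller values. The 40 genes of the RNA polymerase I and III machinery, which make rRNA and tRNA, had a mean difference of -0.28, with 0.36 untreated and 0.08 treated, mainly untreated in 10 of 12 refits. Their median of -0.25 turned its sign with single arrays, at -0.36 with treated H2B WT array 2 left out and 0.04 with treated H2B WT array 1 left out. RPA34, a polymerase I subunit, read 7.0, 8.34 and 8.08 in untreated H2B R95A and 7.01, 7.25 and 5.28 in untreated H2B WT, and 5.49, 4.54 and 4.86 and 5.58, 5.01 and 4.94 after rapamycin. Its difference of responses was -1.51 (standard error 0.72). The 19 tRNA methyltransferase genes had a mean of -0.44 (0.55 untreated, 0.11 treated, mainly untreated in 10 of 12 refits), and TRM11 was the 1 member of any function examined with an unadjusted p under 0.05. TRM82, the partner subunit of the tRNA m7G methyltransferase, had a difference of -1.35 (standard error 0.75). The median of the list was -0.62 with untreated H2B R95A array 1 left out and -0.11 with untreated H2B R95A array 2 left out. The 54 tRNA synthetases and translation factors had a mean of -0.48, with 0.53 untreated and 0.05 treated, mainly untreated in all 12 refits, and 52 of 54 were negative. Their median of -0.44 was -0.82 with untreated H2B R95A array 1 left out and -0.23 with untreated H2B WT array 3 left out. KRS1, the lysyl-tRNA synthetase, had responses of -0.83 in H2B WT and -2.06 in H2B R95A.

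Nucleotide and amino acid synthesis genes had negative responses in H2B R95A and values nearer 0 in H2B WT. The 17 genes of de novo purine synthesis had mean responses of 0.04 in H2B WT and -0.60 in H2B R95A, a difference of -0.64. Untreated arrays read 7.76, 8.22 and 7.65 in H2B WT and 7.60, 9.10 and 8.56 in H2B R95A, so that H2B R95A array 1 was the lowest of all 6 and arrays 2 and 3 the highest. The strain difference was 0.55 untreated and -0.09 treated, mainly untreated in all 12 refits, while the median was -1.15 with untreated H2B R95A array 1 left out and -0.36 with untreated H2B R95A array 2 left out. ADE17, which catalyses the last steps to IMP, read 6.96, 10.66 and 9.81 in untreated and 7.41, 8.84 and 7.14 in treated H2B R95A, and 7.62, 8.63 and 7.33 and 8.28, 8.07 and 7.72 in H2B WT. The difference of responses was -1.51 (standard error 1.13). Purine salvage and GTP synthesis, 13 genes, had a mean of -0.55 (mainly untreated in all 12 refits, 0.62 and 0.07). AAH1, adenine deaminase, read 5.68, 7.39 and 3.82 in untreated H2B WT and 5.62, 9.05 and 6.87 in untreated H2B R95A, and 4.95, 3.37 and 3.85 and 4.80, 3.60 and 3.76 after rapamycin, with equal means in the treated strains. GUA1, GMP synthase, had a difference of -1.55 (standard error 1.17). For the salvage genes the median was -0.73 with untreated H2B R95A array 1 left out and -0.28 with treated H2B R95A array 3 left out.

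Of 46 genes of amino acid synthesis under Gcn4, 40 had a negative difference of responses. The list mean was -0.54, with 0.57 untreated and 0.04 treated, mainly untreated in all 12 refits, while the median was -0.88 with untreated H2B R95A array 1 left out and -0.36 with untreated H2B WT array 3 left out. Its arrays read 8.38, 8.44 and 7.70 in untreated H2B WT, 8.38, 9.07 and 8.78 in untreated H2B R95A, 8.27, 7.97 and 7.78 in treated H2B WT and 8.26, 8.21 and 7.66 in treated H2B R95A. ILV1, threonine deaminase, had responses of 0.07 in H2B WT and -1.43 in H2B R95A, a difference of -1.50 (standard error 1.07, 95% interval -3.85 to 0.85). ARO4, a DAHP synthase of the aromatic pathway, and ARG1, argininosuccinate synthetase, had differences of -1.29 and -1.40 with untreated strain differences of 1.39 and 1.17. In this list 7 of 46 untreated strain differences were positive at an unadjusted p under 0.05, against 1.76% of all probe sets, and 0 treated ones were, against 0.2%.

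Nitrogen catabolite genes had positive responses of similar mean size in both strains. The 14 ammonium and broad-range permease genes had responses of 1.47 in H2B WT and 1.31 in H2B R95A, a difference of -0.16. The arrays read 8.50, 6.83 and 6.93 and 8.60, 6.60 and 6.71 in the untreated strains and 9.59, 8.80 and 8.26 and 9.44, 8.84 and 7.56 in the treated strains, H2B WT first. Treated H2B R95A array 3 was the lowest treated array. By the rule the strain difference was mainly treated (-0.11 untreated, -0.27 treated), but this held in 5 of 12 refits, and the sign of the median difference was not stable, at -0.63 with untreated H2B WT array 1 left out and 0.41 with untreated H2B R95A array 1 left out. MEP2, the high-affinity ammonium permease, read 11.17, 10.82 and 9.31 in treated H2B WT and 10.50, 10.95 and 7.04 in treated H2B R95A, and 8.26, 6.18 and 6.37 and 8.25, 5.96 and 6.11 before treatment. This gave a difference of responses of -0.77 (standard error 1.44), with a 95% interval of -3.94 to 2.40 that leaves room for large differences in either direction. DUR3, the urea transporter, had responses of 2.58 and 2.01 and PTR2, the peptide transporter, of 1.55 and 1.10 in H2B WT and H2B R95A.

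Allantoin genes had responses of 1.12 and 1.06 (8 genes), with a strain difference in both groups (-0.10 and -0.16) in 7 of 12 refits. Their median difference was -0.40 with treated H2B R95A array 2 left out and 0.47 with treated H2B R95A array 3 left out. Genes of proline, arginine and GABA breakdown had responses of 0.69 and 0.51 (11 genes), mainly treated by the rule (0.05 and -0.13) in 6 of 12 refits. ARO9, an aromatic aminotransferase, read 9.996, 9.05 and 8.46 in treated H2B WT and 9.93, 8.99 and 7.07 in treated H2B R95A, and its difference of responses was -1.04 (standard error 1.05). ASP1, cytosolic asparaginase, ran with the biosynthetic genes instead, with a strain difference of 0.88 untreated and -0.35 treated. DAL80, a GATA repressor, had responses of 2.31 and 2.40, a difference of 0.08 (95% interval -1.71 to 1.87). Its list of 5 GATA factors and regulators had a mean difference of 0.20, mainly untreated (-0.22 and -0.02) in 8 of 12 refits. Retrograde response and glutamate genes, 19 in number, had responses of 0.60 and 0.87 and a strain difference in both groups (-0.18 and 0.09) in 6 of 12 refits. The median of 0.31 was -0.07 with untreated H2B WT array 1 left out and 0.72 with untreated H2B R95A array 1 left out. PDH1, of the propionate pathway, read 9.54, 4.70 and 7.0 in untreated H2B WT and 9.94, 3.93 and 4.01 in untreated H2B R95A, but 10.24, 7.97 and 7.99 and 10.37, 7.81 and 8.78 after rapamycin.

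Genes that glucose holds low had the most positive differences, and these rested on few arrays. The 13 genes of gluconeogenesis and the glyoxylate cycle had responses of 0.11 in H2B WT and 1.12 in H2B R95A, a difference of 1.01, and all 13 were positive. The mean signal was 10.84, 7.20 and 8.19 in untreated H2B WT and 10.99, 6.64 and 6.66 in untreated H2B R95A. With rapamycin it was 10.79, 7.93 and 7.84 in H2B WT and 11.06, 7.68 and 8.91 in H2B R95A. Arrays 1 were alike in all 4 groups, and untreated H2B R95A arrays 2 and 3 were the lowest. The strain difference lay in both groups, with opposite signs (-0.65 untreated and 0.36 treated), and this label held in 4 of 12 refits. The median was -0.02 with untreated H2B WT array 1 left out and 2.50 with untreated H2B R95A array 1 left out. PCK1, the key enzyme of gluconeogenesis, had responses of -0.75 and 1.24, a difference of 1.99 with a standard error of 2.87. SFC1, a mitochondrial succinate-fumarate carrier, and MLS1, malate synthase, had differences of 1.67 and 1.66 (standard errors 3.41 and 2.67). For each of the 3 genes the 95% interval spanned 0 widely.

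Genes of fatty acid oxidation, nonfermentable carbon use, glucose repression and respiration were mainly untreated by the rule. For 19 genes of fatty acid oxidation the mean difference was 0.52 (-0.44 untreated, 0.08 treated), and CTA1, peroxisomal catalase, read 8.37, 6.35 and 7.87 in untreated H2B WT and 8.58, 5.25 and 5.52 in untreated H2B R95A. For 11 genes of ethanol, lactate and glycerol use it was 0.41 (-0.38 and 0.03). For 15 further glucose-repressed genes, some of them in the lists above, it was 0.82 (-0.56 and 0.26). These labels held in 6, 5 and 5 of 12 refits, and their medians ranged from 0.14 to 1.13, from -0.09 (without replicate 1 of untreated H2B WT) to 1.34 and from 0.10 to 2.18. In all 3 the highest came without replicate 1 of untreated H2B R95A. The 43 respiratory chain and ATP synthase genes had 42 positive differences (mean 0.38, -0.33 untreated and 0.05 treated, in 8 of 12 refits). Their arrays read 11.10, 9.95 and 10.82 in untreated H2B WT and 11.16, 9.64 and 10.08 in untreated H2B R95A, and 10.97, 10.46 and 10.70 and 11.09, 10.41 and 10.79 after rapamycin, and the median was 0.04 with untreated H2B R95A array 2 left out and 0.79 with untreated H2B R95A array 1 left out. The 20 hexose transporter and glucose sensor genes had a mean of -0.01, with 0.00 untreated and -0.01 treated, in both groups by the rule, a label that no refit kept. HXT3, a low-affinity glucose transporter, read 6.73, 9.22 and 7.95 in untreated H2B WT and 7.12, 10.63 and 9.97 in untreated H2B R95A.

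Stress, storage carbohydrate and autophagy genes had positive differences of responses, from lower untreated signals in H2B R95A. Of 41 heat shock and oxidative stress genes, 38 were positive (mean 0.37, -0.39 untreated and -0.02 treated, in all 12 refits mainly untreated), and the median of 0.35 was 0.15 with untreated H2B R95A array 2 left out and 0.48 with untreated H2B WT array 1 left out. The arrays read 10.55, 10.69 and 11.13 in untreated H2B WT and 10.59, 10.13 and 10.48 in untreated H2B R95A, which overlapped, and 10.56, 10.93 and 11.11 and 10.54, 10.86 and 11.14 after rapamycin. GRE1, a hydrophilin induced by stress, read 10.72, 9.22 and 11.14 and 9.998, 7.53 and 9.02 in untreated H2B WT and H2B R95A. Its response was 0.45 in H2B WT and 1.47 in H2B R95A. SSA3, a stress-inducible Hsp70, and DDR2, a multistress protein, had differences of 0.93 and 0.81 (standard errors 0.75 and 0.57). All 19 trehalose and glycogen genes were positive (mean 0.37, -0.42 and -0.05, mainly untreated in 11 of 12 refits), with GLG1, a glycogenin, at 0.75 (standard error 0.69). Their median of 0.37 was 0.17 with treated H2B WT array 1 left out and 0.48 with untreated H2B WT array 1 left out.

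Of 30 autophagy genes, 27 had a positive difference (mean 0.36). They read 7.24, 6.84 and 7.38 in untreated H2B WT and 7.25, 6.56 and 6.61 in untreated H2B R95A, and between 7.32 and 7.57 on all 6 treated arrays. The difference was mainly untreated in all 12 refits (-0.35 and 0.01), and the median was 0.25 with untreated H2B WT array 3 left out and 0.65 with untreated H2B R95A array 1 left out. ATG29 read 5.54, 5.79 and 4.68 in untreated and 5.62, 6.78 and 6.78 in treated H2B R95A, and ATG20, a sorting nexin, had a difference of 0.78 (standard error 0.37, 95% interval -0.04 to 1.59). Both belong to autophagosome formation. Early meiotic genes, 24 in number, had a mean of 0.28, with -0.41 untreated and -0.12 treated, mainly untreated in 11 of 12 refits, and the median was 0.15 with untreated H2B R95A array 2 left out and 0.56 with untreated H2B R95A array 1 left out. REC8, the meiotic cohesin, read 5.13, 4.74 and 5.46 in untreated H2B WT and 4.64, 3.33 and 4.01 in untreated H2B R95A, with no overlap, and 5.42, 5.48 and 5.59 and 4.83, 5.12 and 5.35 in the treated strains.

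Sulfur genes had a mean response below 0 in H2B WT and above 0 in H2B R95A, with no member past the test. The 26 genes of sulfate assimilation and methionine had a response of -0.40 in H2B WT and 0.16 in H2B R95A, a difference of 0.56 in both groups (-0.34 untreated, 0.22 treated, in 7 of 12 refits). Their arrays read 6.53, 6.88 and 7.71 in untreated H2B WT and 6.63, 6.53 and 6.92 in untreated H2B R95A, and 6.42, 6.68 and 6.81 and 6.49, 6.70 and 7.38 after rapamycin, so that array 3 was the highest of its group in all 4 groups. Within numbers 1, 2 and 3 the response was -0.11, -0.19 and -0.90 in H2B WT and -0.14, 0.17 and 0.46 in H2B R95A, so that the opposite signs were not seen in number 1. The median difference was 0.24 with untreated H2B WT array 3 left out and 0.81 with untreated H2B WT array 1 left out. MUP1, the high-affinity methionine permease, had responses of -1.67 in H2B WT and -0.29 in H2B R95A, a difference of 1.38 (standard error 0.70, 95% interval -0.16 to 2.93). With the replicate number as a block its standard error was 0.39 (unadjusted p = 0.00613, adjusted p = 0.772 from limma). MUP1 read 7.04, 7.83 and 8.64 and 6.0, 6.14 and 6.35 in untreated and treated H2B WT, and 6.56, 6.82 and 7.87 and 6.52, 6.11 and 7.76 in H2B R95A. MET32, a regulator of sulfur genes, had a difference of 1.23 (standard error 0.72). The 13 specific amino acid permease genes, MUP1 included, had a mean of 0.37 in both groups (-0.14 and 0.24), in 7 of 12 refits. Their median was 0.06 with untreated H2B WT array 1 left out and 0.78 with untreated H2B R95A array 1 left out. BAP2, a branched-chain amino acid permease, was mainly treated (0.04 and 0.62). The 5 aryl-alcohol dehydrogenase genes, a family with near-identical members, had a mean of 0.54, mainly untreated (-0.36 and 0.17) in 5 of 12 refits, with a median of 0.12 with untreated H2B R95A array 2 left out and 0.78 with untreated H2B R95A array 1 left out. AAD3 had 0.25 untreated and 0.97 treated.

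Mating genes separated the strains in both conditions and had differences of responses that were small beside the strain differences. The 7 a-specific genes had a strain difference of -4.44 untreated and -3.90 treated, a difference of responses of 0.53, and the label both groups held in all 12 refits. The median difference of responses, 0.47, was 0.15 with treated H2B WT array 1 left out and 1.02 with untreated H2B WT array 1 left out. All 7 were lower at an unadjusted p under 0.05 in the untreated and in the treated comparison, where 3.16% and 1.31% of all probe sets were. Their mean signal was 8.28, 9.59 and 10.13 in untreated and 8.25, 9.65 and 9.94 in treated H2B WT, and 5.50, 4.42 and 4.77 in untreated and 5.51, 5.32 and 5.29 in treated H2B R95A. The strain ranges did not overlap in either condition. STE6, the a-factor exporter, had responses of -0.12 and 0.70, a difference of 0.83 (standard error 0.47, 95% interval -0.20 to 1.86). The 13 haploid-specific genes had -2.43 untreated and -2.08 treated (difference 0.35, both groups), with a median difference of 0.16 with untreated H2B R95A array 2 left out and 0.53 with untreated H2B WT array 1 left out. STE5, the scaffold of the pheromone MAP kinase cascade, read 7.29, 7.80 and 7.72 in untreated and 7.32, 7.62 and 7.60 in treated H2B WT, and 5.78, 4.87 and 5.60 and 5.98, 5.58 and 5.72 in H2B R95A. Its difference of responses was 0.43 (standard error 0.36, 95% interval -0.37 to 1.23). FUS3, the MAP kinase of the pathway, had one of 1.01 (standard error 0.62, 95% interval -0.36 to 2.37), and KSS1, its paralogue of filamentous growth, one of -0.11. The 21 pheromone-induced Ste12 targets had -1.27 untreated and -0.96 treated, a difference of 0.31, again in both groups. Their median difference, 0.22, turned its sign with single arrays, at -0.10 with treated H2B WT array 1 left out and 0.55 with untreated H2B WT array 1 left out. AFR1, a regulator of receptor signalling, was mainly untreated (-1.46 and -0.56), with a difference of 0.90 (standard error 0.49). The 6 α-specific genes had a difference of -0.05, in both groups (-0.70 and -0.75). MAP kinase components shared across pathways had 0.11 (-0.30 and -0.19, both groups in 10 of 12 refits), and SLT2, the cell wall MAP kinase, had responses of 0.59 and 0.49.

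Without the arrays numbered 1, which takes 1 array from each group, 5 mating genes reached the study's threshold for the difference of responses. They came from the lists of 7 a-specific genes, 13 haploid-specific genes and 21 Ste12 targets, and none passed the test. These were FUS3 (1.43), FUS1 (1.35), FAR1 (1.27) and STE6 (1.10), each with a strain difference in both groups, and AFR1 (1.29), which was mainly untreated (-2.02 and -0.73). FUS1 functions in cell fusion and FAR1 in arrest of the cell cycle by pheromone. Over all 12 arrays the differences of FUS3, FUS1, FAR1, STE6 and AFR1 were 1.01, 0.61, 0.52, 0.83 and 0.90. Their unadjusted p ran from 0.0948 to 0.586 from limma. In the refit without arrays numbered 1, 14 of all 5498 probe sets were higher and 13 lower, of which 10 and 12 were mainly untreated. Leaving out replicate 1 of untreated H2B R95A alone gave 26 higher and 26 lower at the threshold, of which 26 and 25 were mainly untreated, and 0 passed the test. Among the 26 lower were NSR1, RPS2, ADE13, ADE17, HIS1, WRS1, RPA49 and TRM11, and among the 26 higher DDR2, MND1, AAD4 and MET4.

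Cell cycle, TOR and chromatin genes had differences of responses near 0. The 26 G1 cyclins and regulators of Start had a mean of 0.05, with 13 positive and 13 negative members. Their strain differences lay in both groups (-0.11 untreated and -0.06 treated), a label kept in 5 of 12 refits. The median was -0.19 with untreated H2B WT array 2 left out and 0.20 with treated H2B R95A array 3 left out. CLN2, a G1 cyclin, read 6.30, 6.87 and 5.97 in untreated and 6.26, 6.13 and 6.17 in treated H2B WT, and 6.15, 6.66 and 5.65 and 6.58, 5.28 and 5.17 in H2B R95A. The difference of responses was -0.28 (standard error 0.55, 95% interval -1.48 to 0.92). CLN1 and CLN3 had differences of -0.33 (-2.21 to 1.55) and 0.21 (-0.49 to 0.90), and MSA2, a partner of the Start transcription factors, one of 0.72, mainly untreated (-0.68 and 0.03). The 27 genes of the TOR complexes and their effectors had a mean of 0.06 (-0.01 and 0.05, mainly treated in 6 of 12 refits), and 10 regulators of ribosome genes one of 0.24, mainly untreated (-0.19 and 0.05) in 10 of 12 refits. The 10 histone genes had a mean of 0.14 (-0.02 and 0.11, mainly treated in 10 of 12 refits). HTB1 and HTA1 had differences of 0.10 (-0.42 to 0.63) and 0.15 (-0.40 to 0.71). HTA2 read between 11.29 and 11.76 although its chromosomal copy is deleted, and it is nearly identical to HTA1, whereas HTB2 read between 5.44 and 6.07. HHT1, HHT2 and HHF1, of histones H3 and H4, had differences of 0.37, 0.14 and 0.24. Genes of H2B ubiquitination and H3K4 methylation had 0.09 (-0.03 and 0.06, mainly treated in 8 of 12 refits). Those of silencing had 0.09 (-0.06 and 0.03, mainly untreated in 4 of 12 refits) and those of the proteasome 0.15 (-0.08 and 0.07, both groups in 4 of 12 refits). ACT1 had a difference of -0.06 (-0.57 to 0.46).

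In other functions the strain difference was of like size with and without rapamycin, or small. Of the subtelomeric COS family, with near-identical members, 9 genes had 0.66 untreated and 0.61 treated, a difference of responses of -0.05, in both groups in all 12 refits. The 16 thiamine genes had -0.31 and -0.47, a difference of -0.16, also in both groups in all 12. THI80, thiamine pyrophosphokinase, read 4.84, 5.97 and 6.45 in untreated H2B R95A and between 4.67 and 5.39 on the 9 other arrays, a difference of -0.95 (standard error 0.49). The 26 cell wall mannoprotein genes had a mean of -0.05, with 0.05 untreated and 0.00 treated, mainly untreated in 6 of 12 refits.

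Over the 46 functions, 25 were mainly untreated, 6 mainly treated and 15 in both groups. The shares over all probe sets, 53.5%, 13.2% and 33.4%, were near these, so the tally sets the functions apart in no way. Of the 28 functions with a mean difference of responses of at least 0.25 in size, 21 were mainly untreated, 0 mainly treated and 7 in both groups. In 11 of the 28 the label was the same in all 12 refits. These 28 were picked on the size of the difference. Probe sets picked on a difference of at least 2-fold were also mostly mainly untreated, 41 of 54 upward and 130 of 155 downward. Some genes belong to several functions.

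**Figure D4:**
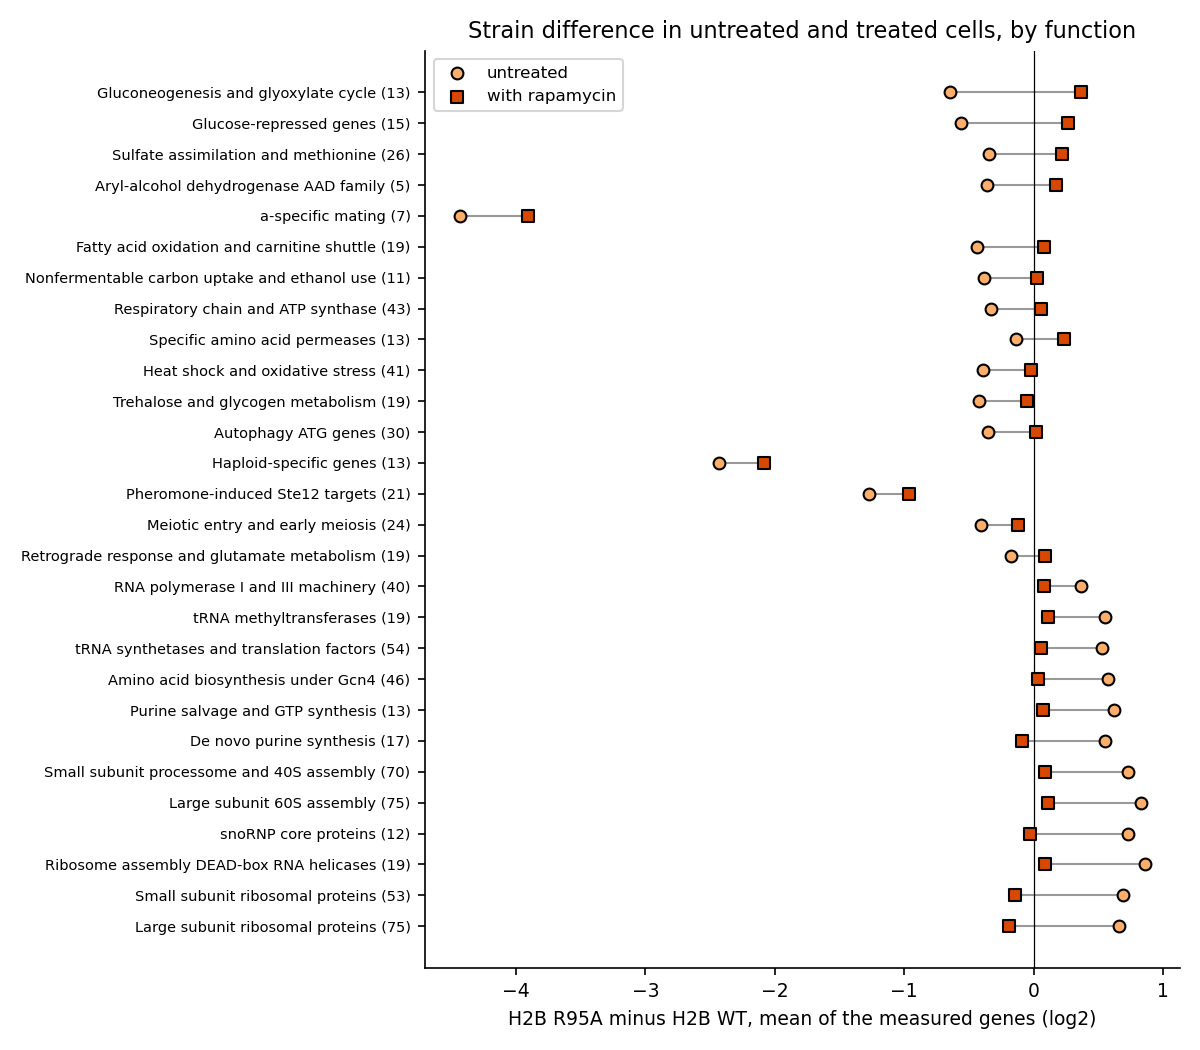
Mean strain difference, H2B R95A minus H2B WT (log2, x axis), of the genes of each of 28 functions in untreated cells (circles) and with rapamycin (squares), with the number of measured genes in brackets. The distance between the 2 markers is the difference of responses, and functions are ordered by it. In 21 functions the circle lies at least 2 times as far from 0 as the square, and in the mating functions both lie far from 0.

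The difference of responses depended on the replicate number. With 1 array of each group, the 4 arrays of a number give 1 value and no test. Over all probe sets the SD of this value was 0.274 in arrays numbered 1, 0.414 in those numbered 2 and 1.05 in those numbered 3. The SD of the untreated strain difference was 0.297, 0.570 and 0.967, and that of the treated one 0.324, 0.358 and 0.438. For the 60S assembly factors the values were -0.05, -0.84 and -1.26 in numbers 1, 2 and 3, for large subunit ribosomal proteins -0.06, -0.35 and -2.12, for de novo purine synthesis -0.17, -0.70 and -1.05 and for gluconeogenesis 0.12, 0.31 and 2.60. For large subunit ribosomal proteins the response in number 3 was, in H2B WT, -0.01, against -2.13 in H2B R95A. In arrays numbered 1 the functions ranged from -0.69, for α-specific genes, to 0.19, for G1 cyclins and Start. The labels do not say whether a number marks a shared day or batch.

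**Figure D5:**
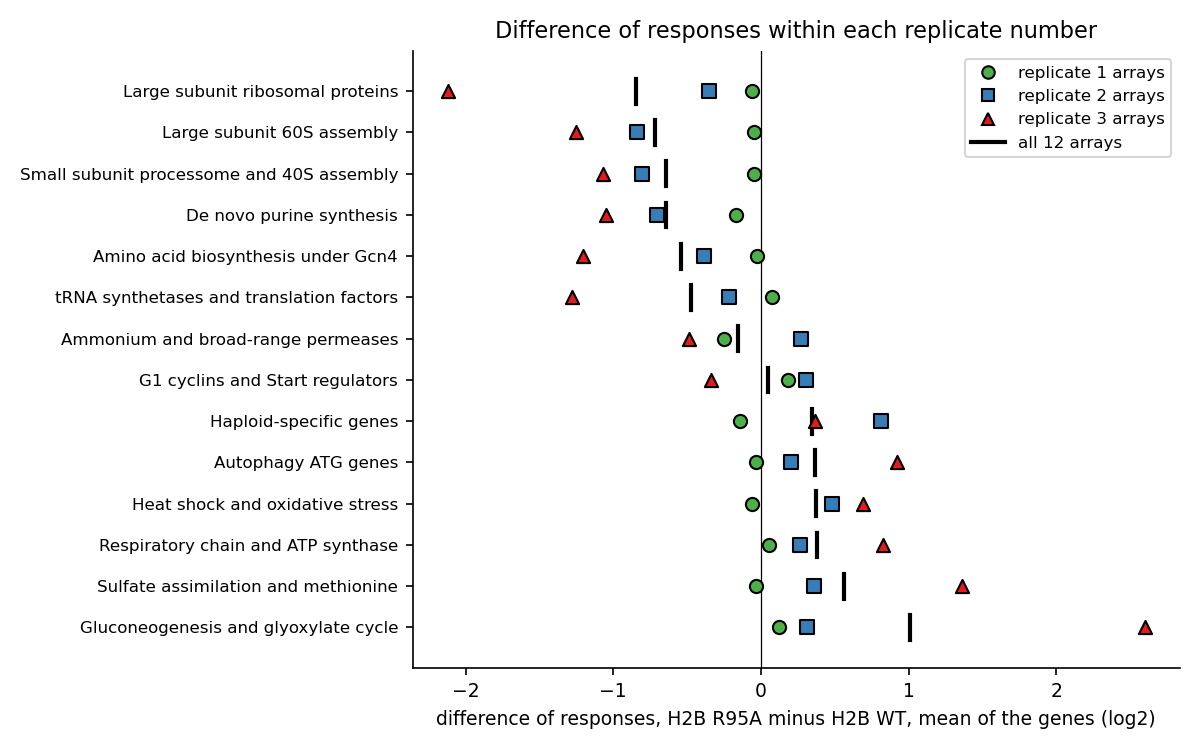
Difference of responses (log2, x axis), H2B R95A minus H2B WT, as the mean over the genes of 14 functions, within the arrays of replicate 1 (green circles), 2 (blue squares) and 3 (red triangles). Black bars give the value from all 12 arrays. Arrays numbered 1 lie between -0.25, for permeases, and 0.19, for G1 cyclins, and those numbered 3 lie farthest out for ribosomal proteins and for gluconeogenesis.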

How the data were processed

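Total RNA of 12 samples was hybridised to Affymetrix yeast arrays. The deposited values are log2 signals, made by the authors by robust multi-array averaging, which corrects background, quantile normalizes the arrays and summarises the probes of a probe set. That step holds the arrays' distributions alike, so a shift of most transcripts cannot be seen. Of 10928 probe sets, 5498 are annotated with one S. cerevisiae gene in the platform table, and the others (S. pombe, controls, no listed gene or several) were left out. Group means were fitted with limma 3.58.1 in R 4.3.3, with a mean-variance trend and Benjamini-Hochberg adjustment over the 5498 probe sets, and a call needed an adjusted p under 0.05. Cyber-T, the test of the study's methods, was computed with a window of 101 and a confidence of 10. The fit was tested on simulated data with independent errors and no effect of the replicate number. It was thus not tested under the replicate differences that these arrays hold. The members and gene lists were chosen with earlier results of these data known. Genes were named as the 12 largest differences in each direction at an unadjusted p of at most 0.01, the 4 largest per list, core histone genes and 9 fixed genes. The other genes with an unadjusted p under 0.05, and those that reached the study's threshold with arrays left out, were named after their values were seen. Alternatives were other normalizations, filters and weights, a replicate block and leaving out each array.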

Additional observations from a re-analysis of the deposited data

Results flagged for a closer look

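TRM11 was the 1 probe set whose rapamycin response differed between the strains with an unadjusted p up to 0.01 and a change of 2-fold or more, the threshold of the study's methods. Its difference of responses was -1.53, with an adjusted p of 0.9997 from limma, so it did not pass the adjusted test. The 3 untreated H2B R95A arrays were the highest of all 12 arrays, and the treated arrays of the strains overlapped. The threshold was kept in 4 of 12 refits with 1 array left out, in which the value ranged from -1.83 to -1.15. With the replicate number as a block TRM11 lost the threshold (unadjusted p = 0.0121 from limma). In that fit MUP1 reached it in the higher and UTP23 in the lower direction. With the block as a random effect TRM11 kept the threshold (unadjusted p = 0.00523 from limma).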

How the results depend on the processing

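No probe set passed the adjusted test in any of the 25 alternatives, and the smallest adjusted p was 0.539, without replicate 1 of untreated H2B R95A. The study's threshold was reached by 0 probe sets in the higher and 1 in the lower direction. Array weights gave 7 higher and 9 lower, and leaving out replicate 1 in all groups 14 and 13. Spike-in centring, quantile normalization over the tested probe sets, and leaving out replicate 2 or replicate 3 in all groups gave 0 lower. With 1 array left out at a time the count was 0 to 26 higher and 0 to 26 lower, both highest without replicate 1 of untreated H2B R95A. At an unadjusted p under 0.05, the counts of 3 higher and 5 lower became 166 and 131 with array weights, 204 and 114 without replicate 1 in all groups, and 1 to 253 and 3 to 233 with 1 array left out. TRM11 also lost the study's threshold with spike-in centring and with quantile normalization. Centring on the spike-in controls shifted all differences of responses by a median of -0.187.

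Without replicate 3 in all groups, the median difference of responses was -0.192 for large subunit ribosomal proteins, -0.168 for small subunit ones and 0.227 for G1 cyclins and Start regulators. The cause was not tested.

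Correlations between arrays with the same replicate number, as deviations from their group means, ranged from 0.0134 to 0.885. Each array correlated best with its own number in 16 of 18 comparisons. The lowest values, 0.0134 and 0.0578, both involved untreated H2B R95A array 3. The main fit did not pair the samples by number, so its standard errors and intervals hold variation that goes with the numbers. With the replicate number as a block, the study's threshold was reached by MUP1 in the higher direction (1 probe set) and by UTP23 in the lower (1), and no longer by TRM11 (unadjusted p = 0.0121 from limma). The block gave 38 higher and 36 lower at an unadjusted p under 0.05, and the smallest adjusted p was 0.772. With the block as a random effect, 1 was higher (YAR009C, unadjusted p = 0.00577 from limma). In the lower direction 1 reached the threshold, and this was TRM11 (unadjusted p = 0.00523 from limma).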
